A study of Mus musculus with 44 samples.

Results

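The genes described here are 10 members of the transforming growth factor beta (TGF-beta) pathway: the ligands Tgfb1 and Tgfb3, the receptors Tgfbr1, Tgfbr2 and Tgfbr3, the signal carrier Smad3, and 4 inhibitory or feedback genes, Smad7, Skil, Ldlrad4 and Pmepa1. They were taken by symbol from a deposited count table of 55416 genes, and all 10 passed the filter on low counts that left 21873 genes for testing. The data are bulk messenger RNA of mouse CD4 T cells, sorted as naive cells from the spleen of C57BL/6NTac animals that were wild type (WT), knockout (KO) or knock-in (KI) for microRNA-150 (miR-150), a small RNA of lymphocytes. All cultures lasted 3 days on coated anti-CD3 with soluble anti-CD28. Th0 cultures received nothing further, Th1 cultures also anti-interleukin-4 antibody and interleukin-12, and Treg cultures anti-interferon-gamma antibody and TGF-beta 1. Each of the 9 groups had 5 libraries, except Th0 KI with 4 (44 in all), and libraries are named here by culture, genotype and number (Treg WT 4). The labels give strain and genotype, but the sex and age of the mice, the construction of the alleles and whether cells of several mice were pooled were not stated in any source at hand.

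TGF-beta ligands are made as latent dimers. Active ligand binds TGFBR2, a serine/threonine kinase that recruits and phosphorylates TGFBR1, while the betaglycan TGFBR3 presents ligand without kinase activity. TGFBR1 phosphorylates SMAD2 and SMAD3, which enter the nucleus with SMAD4, and in CD4 T cells given TGF-beta this signal is known to support transcription of Foxp3, the defining factor of regulatory T cells. SMAD7 blocks and helps to degrade TGFBR1, SKIL (SnoN) represses SMAD complexes on DNA, and LDLRAD4 and PMEPA1 are membrane proteins that keep SMAD2 and SMAD3 from the receptor, so these 4 restrain the pathway that can induce them.

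Library totals ran from 60815821 to 137415965 counts. Levels are CPM, counts scaled to a common library size with the TMM factors of edgeR, which correct for library composition. Differences are log2 fold changes ± SE from the quasi-likelihood test of edgeR, adjusted by Benjamini and Hochberg's method over all genes tested, and a gene rose or fell where its adjusted p was below 0.05. The labels do not say that libraries of a group came from separate animals, so p-values measure the spread between these libraries, which may be technical. CD4 T cell markers were high in every library (Cd4 at 169 to 697 CPM, Cd3e at 80.3 to 265). Mir150, the locus changed by design, had at most 2 counts in any library (6 counts over the 15 WT libraries, 0 over the 15 KO and 7 over the 14 KI), too few to check the genotype label of a library. Markers of other cells were present: the summed CD8 T cell markers Cd8a and Cd8b1 ranged from 4.68 to 590 CPM and were highest in Treg WT 4 (590), Treg KI 3 (406), Th0 WT 4 (188) and Th1 WT 4 (187). The summed B cell markers reached 831 CPM in Th0 KI 3. Foxp3 stood at 0.362 to 4.35 CPM in every Th0 and Th1 library. In Treg cultures it was 376 to 596 CPM in 11 libraries, but 159 in Treg WT 3, 77.4 in Treg KO 2, 62 in Treg KI 3 and 47.7 in Treg WT 4, so 4 libraries labelled Treg had far less of its defining transcript than the rest. The 4 Treg markers Foxp3, Ikzf2, Il2ra and Ctla4 summed to 2216 to 2899 CPM in Treg WT, highest in Treg WT 3. Their sum was 1591 to 3941 CPM in Th1 WT and 918 to 1644 in Th0 WT, and reached 4447 in Th1 KO 2. This sum therefore did not set Treg apart from Th1 cultures, and Il2ra alone ranged from 673 to 3591 CPM. In bulk RNA, fewer cells of a type and less RNA per cell cannot be told apart.

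The 3' untranslated regions of 3 members hold the letters TTGGGAG, which pair with bases 2 to 8 of miR-150-5p (a 7mer-m8 match). They are Tgfbr1, Tgfbr2 and Skil, and these sites are shown because they pair with all 7 bases of the seed. The capitals mark the seed match, with the A that makes it an 8mer where present. Coordinates are GRCm38 and transcripts GENCODE release M21.
Tgfbr1, chr4:47414111-47414140, plus strand: tgaagaatagtTTGGGAGtgcagtacagct
Tgfbr2, chr9:116089174-116089203, minus strand: tttagaactatTTGGGAGgttgcagagaag
Tgfbr2, chr9:116085461-116085490, minus strand: tttgtaagtcaTTGGGAGAtgaacacactt
Tgfbr2, chr9:116085339-116085368, minus strand: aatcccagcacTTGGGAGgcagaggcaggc
Skil, chr3:31120190-31120219, plus strand: cttctgtaaccTTGGGAGAagcacgatagg
The search covered the transcript strand of the longest 3' untranslated region of each gene. TTGGGAG occurs in 15.9% of the 14508 tested genes that have such a region, and its 8mer form TTGGGAGA in 4.76% of them. The overlapping letters TGGGAGA (a 7mer-A1 match) occur in 16.3% of the tested genes and, among the members, in Tgfbr2, Skil and Pmepa1. A match is a description of letters and not evidence of a working site. Tgfb1, Tgfb3, Tgfbr3, Smad3, Smad7 and Ldlrad4 held none of the 3 forms.

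The comparison of Treg with Th0 cultures shows what these genes did where TGF-beta 1 and anti-interferon-gamma antibody were added together. The parts of the 2 additions cannot be told apart. Both signalling receptors and all 4 inhibitory genes rose in every genotype. In this fit, which does not pair libraries by number, Smad3 and the ligands did not pass the test. Of the 6 genes that rose in every genotype, the smallest rise was that of Tgfbr2 in KO and the largest that of Ldlrad4 in WT. In WT, 6 of 10 members were called, all higher, against 33.1% of all genes called, 17.4% higher and 15.7% lower. In KO, 6 of 10 were called against 33% of all genes (17.1% higher, 15.9% lower), and in KI 7 of 10 against 33.6% (16.7% higher, 16.9% lower), the additional member being Tgfbr3. The median log2 fold change of the 10 members was 1.93 in WT, 1.15 in KO and 1.72 in KI, where the medians over all genes were 0.02, 0.04 and -0.01. The members were chosen with the pathway's change in these cultures known, so these counts describe the list. The comparisons also share their spread estimate and each Th0 group serves both as the base for Treg and for Th1.

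**Figure D1:**
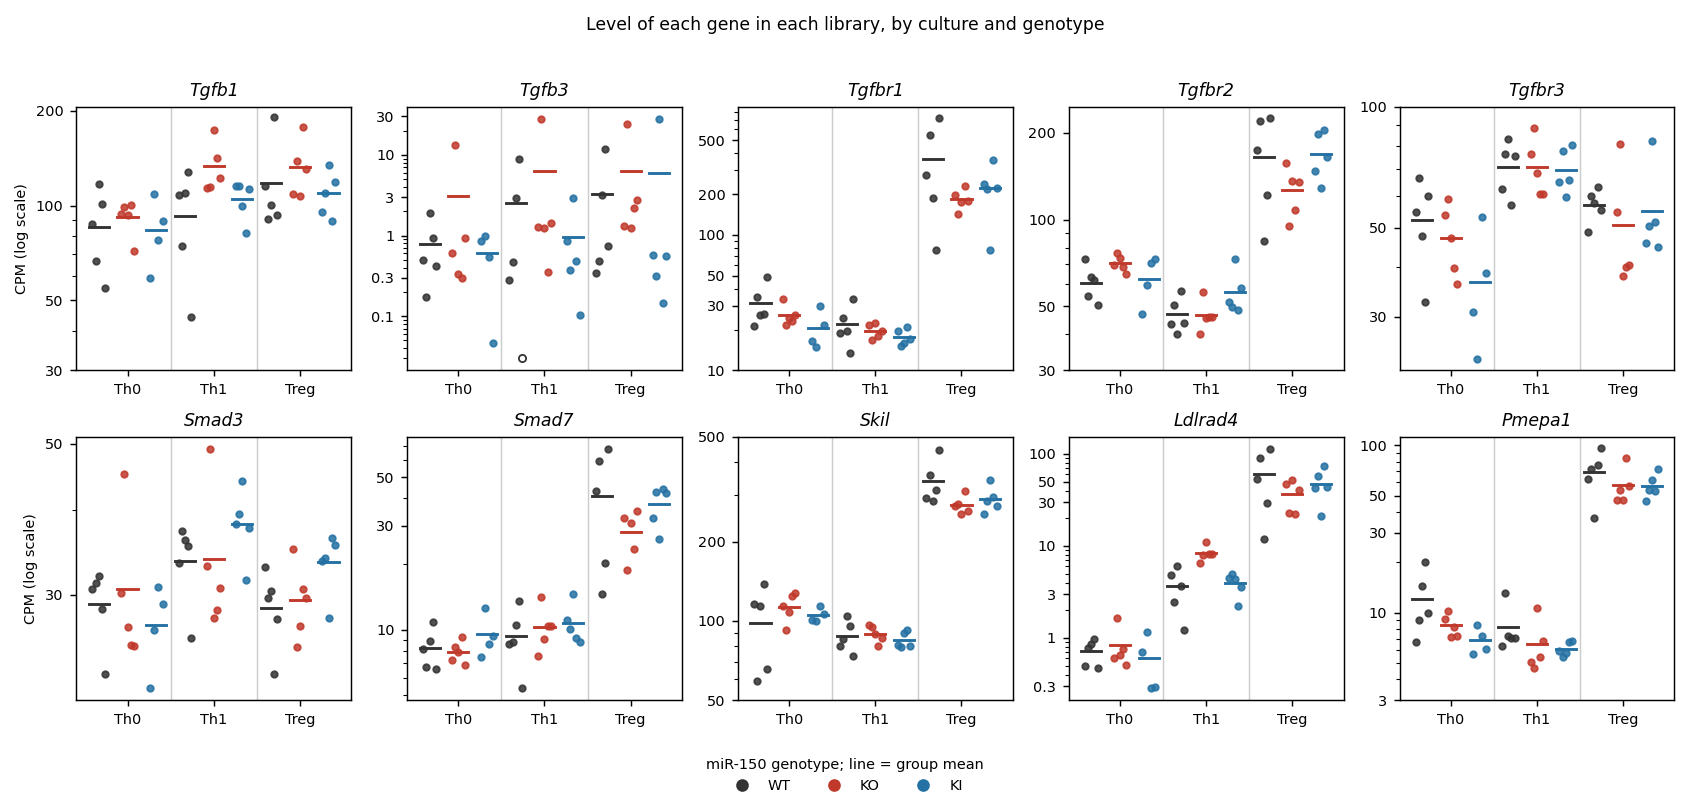
Level of each of the 10 genes in each of the 44 libraries, in CPM on a log axis, by culture (Th0, Th1, Treg) and genotype (black WT, red KO, blue KI). Points are libraries, lines are group means, and the open circle for Tgfb3 marks a library with 0 counts drawn at the bottom of the axis. The 15 Treg libraries of Tgfbr1, Tgfbr2, Smad7, Skil, Ldlrad4 and Pmepa1 lie above all 29 Th0 and Th1 libraries. For Smad7 they do so only just (14.5 CPM in Treg WT 3 and in Th1 KI 3). The Treg libraries of Smad3 lie among the others. The share of all genes separated in this way was not counted.

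Tgfbr1, the type I receptor kinase (chr4:47353222-47414931 in GRCm38), was at 21.3, 34.5, 25.5, 26 and 48.8 CPM in Th0 WT 1 to 5. In Treg WT 1 to 5 it was at 278, 549, 186, 77.9 and 722 CPM. Every Treg WT library was above every Th0 WT library, yet the Treg values themselves ran over a wide range, lowest in Treg WT 4. The difference was 3.54 ± 0.38 on the log2 scale (edgeR adjusted p = 1.42e-08), an 11.6-fold rise. In KO, Th0 libraries held 33.8, 21.7, 24.3, 23.1 and 25.7 CPM and Treg libraries 196, 142.3, 173, 228 and 177 CPM, a difference of 2.83 ± 0.37 (edgeR adjusted p = 3.15e-07). In KI, Th0 libraries held 16.4, 14.9, 29.6 and 21.6 CPM and Treg libraries 235, 219, 77.6, 358 and 223 CPM, a difference of 3.43 ± 0.41 (edgeR adjusted p = 1.27e-07). The groups did not overlap in either genotype. Per kilobase of exon, Tgfbr1 had the highest level of the members in any group (55.5 CPM per kb in Treg WT) and one of 2.71 in Th1 KI.

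Tgfbr2, the ligand-binding type II receptor kinase (chr9:116084293-116175360), was already present without added TGF-beta, at 72.8, 54.2, 63.1, 61.6 and 50.4 CPM in Th0 WT 1 to 5. In Treg WT 1 to 5 it was at 174, 221, 84.5, 121.8 and 226 CPM. All Treg WT libraries were above all Th0 WT libraries, with Treg WT 3 nearest to them. Its rise was smaller than that of Tgfbr1 on the log2 scale, at 1.45 ± 0.18 in WT (edgeR adjusted p = 2.81e-07), 0.84 ± 0.18 in KO (edgeR adjusted p = 0.000418) and 1.43 ± 0.20 in KI (edgeR adjusted p = 1.08e-06). Treg KO libraries held 157, 95.1, 135.8, 108.2 and 135.1 CPM and Treg KI libraries 147, 199, 128.7, 205 and 165 CPM, above every Th0 library of their genotype.

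Tgfbr3, the co-receptor betaglycan (chr5:107106570-107289629), was near the same level in Th0 and Treg cultures of WT (52.3 ± 12.9 and 57 ± 5.47 CPM, SD, n = 5 each; edgeR adjusted p = 0.684) and of KO (47.1 ± 9.47 and 50.8 ± 18.1 CPM, SD, n = 5 each; edgeR adjusted p = 0.729). In KI it was at 30.9, 23.6, 53.1 and 38.6 CPM in Th0 and 45.9, 50.4, 82.2, 51.7 and 44.9 CPM in Treg, a rise of 0.59 ± 0.22 (edgeR adjusted p = 0.0318) with groups that overlapped. That call rested on single libraries. It was lost without Treg KI 3, the highest library and one of the 4 with little Foxp3 (0.39), without Th0 KI 1 (0.51), Th0 KI 3 (0.42) or Th0 KI 5 (0.60), and when WT 4, KO 2 and KI 3 of every culture were left out together (0.22).

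The 4 inhibitory genes differed in how far they rose. Ldlrad4 (chr18:67933257-68268630), which restrains SMAD2 and SMAD3 at the membrane, was low in Th0 WT, at 0.493, 0.779, 0.870, 0.979 and 0.467 CPM. It was at 53.4, 91.4, 12, 29.4 and 114 CPM in Treg WT 1 to 5, all above Th0, with the highest at 9.49 times the lowest. The rise was 6.38 ± 0.55 in WT (edgeR adjusted p = 2.92e-10), 5.47 ± 0.53 in KO (edgeR adjusted p = 1.94e-09) and 6.28 ± 0.61 in KI (edgeR adjusted p = 3.46e-09). Treg KO libraries held 46.8, 22.6, 51.8, 22 and 40.9 CPM, and Treg KI libraries 42.4, 58, 21.1, 73.3 and 43.6 CPM.

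Pmepa1 (chr2:173224458-173276533), a membrane protein of the same kind of action, was at 6.70, 9.05, 14.4, 20.2 and 10.02 CPM in Th0 WT and at 62.5, 72, 36.9, 76.6 and 96.7 CPM in Treg WT. No Treg library came near a Th0 library. The rise was 2.51 ± 0.26 in WT (edgeR adjusted p = 5.13e-09), 2.78 ± 0.26 in KO (edgeR adjusted p = 1.06e-09) and 3.07 ± 0.29 in KI (edgeR adjusted p = 2.96e-09). Smad7 (chr18:75367529-75395935), the inhibitory SMAD, was at 8.11, 6.70, 8.87, 10.8 and 6.57 CPM in Th0 WT and at 43.1, 59.4, 14.5, 20.2 and 67.7 CPM in Treg WT. Treg WT 3 and Treg WT 4 stood closest to the Th0 range, and neither fell into it. Its rise was 2.32 ± 0.29 in WT (edgeR adjusted p = 1.81e-07), 1.83 ± 0.28 in KO (edgeR adjusted p = 4.03e-06) and 1.98 ± 0.31 in KI (edgeR adjusted p = 5.15e-06).

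Skil (chr3:31095058-31122577), the nuclear SMAD repressor, was the most abundant of the 4, with 116.4, 59.2, 114, 137.7 and 65.6 CPM in Th0 WT. In Treg WT 1 to 5 it was at 292, 357, 286, 314 and 444 CPM, far above the highest Th0 WT library in each case. Among the 6 genes that rose, its Treg libraries varied least in every genotype (coefficient of variation of 19.3% in WT, 7.78% in KO and 11.5% in KI). They held 273, 278, 255, 310 and 261 CPM in KO and 255, 285, 344, 296 and 272 CPM in KI. The rise was 1.78 ± 0.15 in WT (edgeR adjusted p = 2.92e-10), 1.28 ± 0.15 in KO (edgeR adjusted p = 6.76e-08) and 1.46 ± 0.16 in KI (edgeR adjusted p = 3.71e-08). Per kilobase of exon, Skil stood at 34.9 CPM per kb in the group where it was highest (Treg WT), above Pmepa1 (14), Ldlrad4 (11.2) and Smad7 (9.06) in theirs.

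Smad3, which carries the signal to the nucleus (chr9:63646767-63757994), was not called for Treg against Th0 in any genotype, unlike both signalling receptors. It was at 30.6, 31.2, 32, 28.6 and 23 CPM in Th0 WT and at 32.9, 29.6, 30.4, 22.9 and 27.7 CPM in Treg WT, with overlapping groups (edgeR adjusted p = 0.946). The adjusted p of the same comparison was 0.830 in KO and 0.145 in KI, and group means over all 9 groups ran only from 27.1 CPM in Th0 KI to 38.2 in Th1 KI. Every neighbouring pair of groups in that order overlapped.

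The ligand Tgfb1 (chr7:25687002-25705077) had the highest level per kilobase of exon of all members in every Th0 and Th1 group, and lay at 16.6 to 26.4 CPM per kb over the 9 group means. It was at 87.6, 66.7, 117.5, 101.4 and 54.7 CPM in Th0 WT and at 115.4, 90.5, 100.7, 192 and 93.8 CPM in Treg WT. The difference between Treg and Th0 was 0.47 ± 0.22 in WT (edgeR adjusted p = 0.102), 0.53 ± 0.22 in KO (edgeR adjusted p = 0.0632) and 0.39 ± 0.24 in KI (edgeR adjusted p = 0.213), and none passed the test. In KO the 2 groups did not overlap (72.1 to 100.8 CPM in Th0, 106.99 to 178 in Treg). With a replicate block, which sets libraries of the same genotype and number beside each other, the KO difference was 0.52 and passed. Same-numbered Th0 and Treg libraries of KO deviated together, with correlations of 0.107 or more. In WT, where such correlations were 0.092 or more, the difference with the block was 0.48 and also passed.

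Tgfb3 (chr12:86056745-86079041), the other ligand, was low and uneven. Its medians lay between 0.468 and 2.19 CPM in every group, where the floor of 3 counts is worth at most 0.0493 CPM, and Th1 WT 5 had 0 counts, which allows up to that floor. Single libraries stood far above these medians, with 13.2 CPM in Th0 KO 2, 27.5 in Th1 KO 2 and 23.8 in Treg KO 2, 28 in Treg KI 3, and 8.81 and 11.8 in Th1 WT 4 and Treg WT 4. The SE of its log2 fold changes was 1.42 for Treg against Th0 in WT, the edgeR adjusted p 0.276. In KI the same difference was 3.28 ± 1.63 (edgeR adjusted p = 0.121) with all libraries, -0.62 without Treg KI 3, and -0.28 without WT 4, KO 2 and KI 3 of every culture. Cd8a stood at 20.5 and 21.3 CPM in Th0 KO 2 and Th1 KO 2, 73.1 in Treg KO 2, 318 in Treg KI 3, and 131.5 and 443 in Th1 WT 4 and Treg WT 4, where the other libraries of their groups held 1.27 to 31.7. Cd8a was also high in Th0 WT 4 and Th0 KI 3 (112.7 and 107.5 CPM), where Tgfb3 was at 0.920 and 0.984 CPM. The part of other cells in the Tgfb3 values was not tested.

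**Figure D2:**
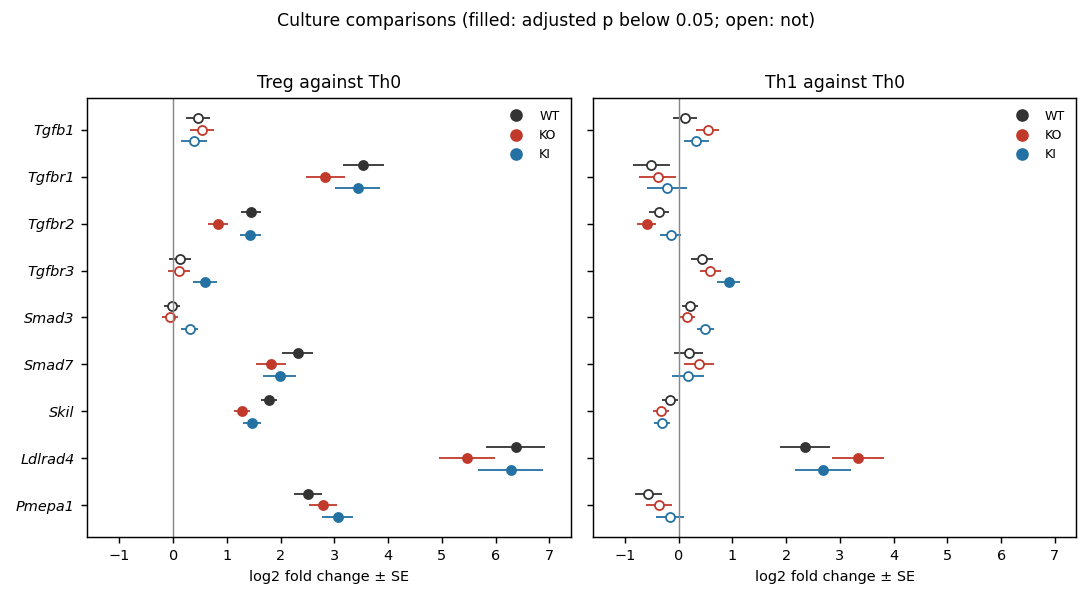
Log2 fold change ± SE of 9 of the genes for Treg against Th0 (left) and Th1 against Th0 (right) in WT (black), KO (red) and KI (blue). Filled points have an edgeR adjusted p below 0.05 and open points do not; Tgfb3 is left out because its SE is too wide for the axis. In Treg cultures Ldlrad4 (6.38 in WT), Tgfbr1 (3.54) and Pmepa1 (2.51) lie farthest from 0, and in Th1 cultures Ldlrad4 (2.35 in WT) alone is filled in all 3 genotypes.

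The comparison of Th1 with Th0 asks which of these genes also moved under interleukin-12 and anti-interleukin-4 antibody, without added TGF-beta. Ldlrad4 was the only member called in all 3 genotypes. It was at 4.86, 2.47, 6.12, 3.66 and 1.22 CPM in Th1 WT, 6.59, 7.93, 11.1, 8.16 and 8.27 in Th1 KO and 4.51, 4.98, 4.41, 2.24 and 3.59 in Th1 KI. Every one of these libraries was above every Th0 library of its genotype, and below every Treg library of its genotype. The rise over Th0 was 2.35 ± 0.47 in WT (edgeR adjusted p = 0.0017), 3.34 ± 0.48 in KO (edgeR adjusted p = 1.23e-05) and 2.69 ± 0.52 in KI (edgeR adjusted p = 0.00123). In WT it was the single member called of 10, against 3.04% of all genes. In KO 2 of 10 members were called against 9.51% of all genes, and in KI 2 of 10 against 5.92%.

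No other receptor or inhibitor was called in more than 1 genotype in Th1 cultures. Tgfbr2 fell in KO by 0.60 ± 0.18 (edgeR adjusted p = 0.0304), from 69.8, 76.9, 73.8, 68.6 and 64.7 CPM in Th0 to 40.2, 56.2, 45.7, 46 and 46 CPM in Th1, groups that did not overlap. The corresponding values were -0.37 ± 0.18 in WT (edgeR adjusted p = 0.337) and -0.15 ± 0.19 in KI (edgeR adjusted p = 0.722). The KO call was lost when any of 7 single libraries was left out (Th0 KO 1, 2 or 3, or Th1 KO 1, 3, 4 or 5), with values from -0.53 to -0.59. Tgfbr3 rose in KI by 0.93 ± 0.22 (edgeR adjusted p = 0.00777), from 30.9, 23.6, 53.1 and 38.6 CPM to 65, 77.5, 59.5, 65.7 and 80.2 CPM, with no overlap. The call was lost without Th0 KI 1, at 0.87. In WT and KO the values of Tgfbr3 were 0.44 ± 0.20 (edgeR adjusted p = 0.306) and 0.59 ± 0.20 (edgeR adjusted p = 0.0575).

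With the replicate block, 3 further members passed for Th1 against Th0, where same-numbered libraries correlated at 0.185 or more in KO and 0.147 or more in KI. They were Tgfb1 in KO (0.53 with the block, 0.54 ± 0.22 and edgeR adjusted p = 0.119 without), Tgfbr3 in KO (0.60 with the block) and Smad3 in KI (0.49 with the block, 0.49 ± 0.16 and edgeR adjusted p = 0.0578 without). Smad3 was at 38.2, 39.5, 44, 31.5 and 37.6 CPM in Th1 KI and 21.8, 26.7, 30.8 and 29.1 CPM in Th0 KI, with no overlap. Pmepa1 was at -0.56 ± 0.25 in WT, -0.37 ± 0.25 in KO and -0.17 ± 0.26 in KI, none past the test. Tgfbr1, Smad7 and Skil were not called in any genotype.

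Between the polarized cultures, the same 6 members that rose over Th0 in WT were higher in Treg than in Th1 in all 3 genotypes. The counts were 6 of 10 in each case, against 30.8% of all genes in WT, 30% in KO and 32.8% in KI. Tgfbr1 differed by 4.05 ± 0.39 in WT, 3.22 ± 0.37 in KO and 3.65 ± 0.38 in KI, a wider gap than over Th0. Ldlrad4 differed by 4.03 ± 0.49 in WT, 2.13 ± 0.45 in KO and 3.59 ± 0.48 in KI, a narrower gap than over Th0. Pmepa1 (3.08 to 3.23), Skil (1.62 to 1.94), Smad7 (1.45 to 2.13) and Tgfbr2 (1.43 to 1.82) held the other places, and the highest edgeR adjusted p of the 18 calls was 0.000373, for Ldlrad4 in KO. Tgfbr3 lay the other way in mean, at -0.31 ± 0.20 in WT (edgeR adjusted p = 0.250), -0.48 ± 0.20 in KO (edgeR adjusted p = 0.0686) and -0.34 ± 0.20 in KI (edgeR adjusted p = 0.208), with overlapping groups and no call. Treg KO 2 (80.8 CPM) and Treg KI 3 (82.2) lay within or above the Th1 range of their genotype, while the other Treg libraries of KO and KI (38 to 54.9 and 44.9 to 51.7 CPM) lay below every Th1 library (60.7 to 88.4 and 59.5 to 80.2). With WT 4, KO 2 and KI 3 of every culture left out, the values of Tgfbr3 were -0.44 in WT, -0.66 in KO and -0.62 in KI (edgeR adjusted p of 0.0185, 0.000724 and 0.00129). The libraries left out were chosen from these same data and include Treg KO 2 and Treg KI 3. These p-values therefore describe the remaining libraries and are not a test of the difference.

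The genotype comparisons address whether these genes differed with the miR-150 genotype within a culture. No member was called by edgeR in any of the 9 genotype comparisons, which make 90 tests over the members. Of those tests, 10 had an unadjusted p below 0.05, where 4.79% to 16.3% of all genes did in the single comparisons. The share of all genes called was itself small: 0.512% for KI against WT in Th0, 0.0274% for KI against WT in Th1, 0.169% for KO against WT in Treg, 0.0229% for KI against KO in Treg, and 0% in the remaining 5. In those 5, 1048 to 2684 genes had an unadjusted p below 0.05, and DESeq2 called 3 to 140. DESeq2 called 1 member in 1 of the 9 comparisons, Pmepa1 for KI against WT in Th0. Leaving out Tgfb3, the members' log2 fold changes in these comparisons ran from -1.09 to 1.20.

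**Figure D3:**
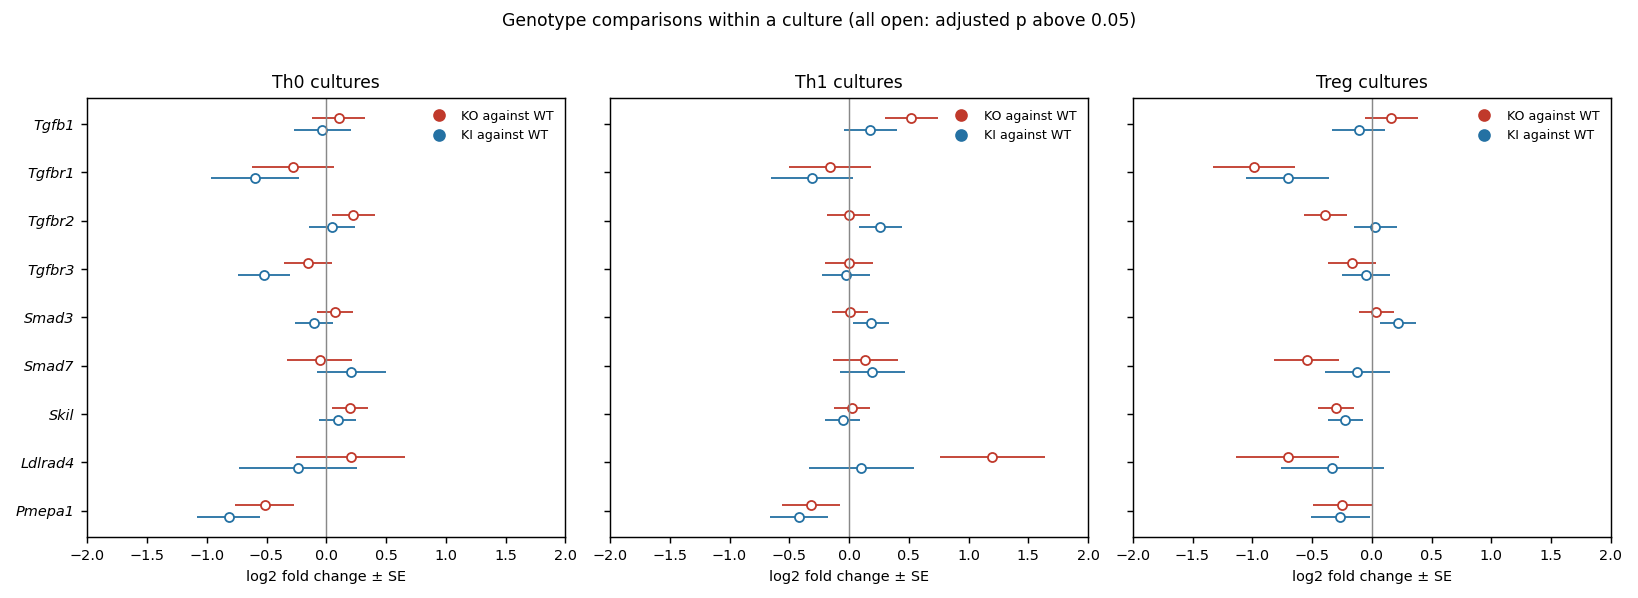
Log2 fold change ± SE of 9 of the genes for KO against WT (red) and KI against WT (blue) in Th0, Th1 and Treg cultures, with Tgfb3 left out for its wide SE. All points are open because no adjusted p was below 0.05; Ldlrad4 in Th1 KO (1.20) and Tgfbr1 in Treg KO (-0.99) lie farthest from 0.

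In Treg cultures, Tgfbr1 gave the largest genotype difference among the members. Its mean was 363 ± 266 CPM in WT, 183 ± 31.4 in KO and 222 ± 99.3 in KI (SD, n = 5 each). KO was lower than WT by a log2 value of -0.99 ± 0.35 (edgeR adjusted p = 0.286) and KI by -0.71 ± 0.35 (edgeR adjusted p = 0.612). The WT and KO groups overlapped, with Treg WT 4 (77.9 CPM) below every KO library and Treg WT 3 (186) among them. The KO difference passed the test without Treg WT 4 (-1.26) and without WT 4, KO 2 and KI 3 of every culture (-1.19). Both fits leave out the lowest Treg WT library and are descriptions. Ldlrad4 (-0.70 ± 0.43, edgeR adjusted p = 0.626) and Smad7 (-0.55 ± 0.27, edgeR adjusted p = 0.503) were also lower in mean in Treg KO than in Treg WT, and neither passed. Of the 2 other members with a TTGGGAG match, Skil was at 339 ± 65.5 CPM in Treg WT, 275 ± 21.4 in KO and 290 ± 33.4 in KI, and Tgfbr2 at 165 ± 61.7, 126.2 ± 24.6 and 169 ± 32.7 (SD, n = 5 each). For Tgfbr2, KI was above KO by 0.42 ± 0.18 (edgeR adjusted p = 0.558).

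In Th1 cultures, Ldlrad4 was higher in every KO library (6.59 to 11.1 CPM) than in every WT library (1.22 to 6.12) and every KI library (2.24 to 4.98). The differences were 1.20 ± 0.44 for KO against WT (edgeR adjusted p = 0.507) and -1.09 ± 0.44 for KI against KO (edgeR adjusted p = 0.701), so the separation did not pass the test over all genes. Tgfb1 was at 133.2 ± 25.4 CPM in Th1 KO and 93.0 ± 33.4 in Th1 WT (SD, n = 5 each), a difference of 0.52 ± 0.22 (edgeR adjusted p = 0.507).

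In Th0 cultures, Pmepa1 was the member nearest to the threshold. WT libraries held 6.70, 9.05, 14.4, 20.2 and 10.02 CPM, KO libraries 9.16, 10.3, 7.21, 8.27 and 7.28, and KI libraries 5.70, 8.42, 7.27 and 6.05. KI differed from WT by -0.81 ± 0.26 (edgeR adjusted p = 0.114) and KO from WT by -0.52 ± 0.25 (edgeR adjusted p = 1). The KI difference passed with DESeq2 (-0.82) and without Th0 WT 1 (-0.96). Tgfbr3 was at 52.3 ± 12.9 CPM in Th0 WT (SD, n = 5) and 36.5 ± 12.6 in Th0 KI (SD, n = 4), a difference of -0.52 ± 0.22 (edgeR adjusted p = 0.212) that passed without Th0 KI 4 (-0.76). Tgfbr1 differed by -0.60 ± 0.37 in the same comparison (edgeR adjusted p = 0.441).

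Whether the culture effects themselves differed between genotypes was tested as a difference of differences. No member was called in any of the 4 such comparisons, and the share of all genes called was 0% in each, by edgeR (384 to 1360 genes at an unadjusted p below 0.05). DESeq2 called 1 to 19 genes and no member. Over the members, 2 of 40 tests had an unadjusted p below 0.05, against 1.76% to 6.22% of all genes. Both concerned the Treg effect in KO against that in WT: Tgfbr2 at -0.62 ± 0.25 (edgeR adjusted p = 0.890) and Skil at -0.50 ± 0.21 (edgeR adjusted p = 0.894). The smaller rises in KO given above are therefore not shown to differ from those in WT.

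Among the Treg libraries, the 6 genes that rose fell into different patterns beside Foxp3. In the 4 libraries with little Foxp3, Tgfbr1 was below every other library of its group in Treg WT 4 (77.9 against 186 to 722 CPM), Treg KO 2 (142.3 against 173 to 228) and Treg KI 3 (77.6 against 219 to 358), and in Treg WT 3 (186) only Treg WT 4 was lower. Smad7 was lowest of its group in Treg WT 3 (14.5 CPM), Treg KO 2 (18.7) and Treg KI 3 (26), and second lowest in Treg WT 4 (20.2). Ldlrad4 was lowest in Treg WT 3 (12 CPM) and Treg KI 3 (21.1), and second lowest in Treg WT 4 (29.4) and Treg KO 2 (22.6). Tgfbr2 was lowest in Treg WT 3 (84.5), Treg KO 2 (95.1) and Treg KI 3 (128.7), and second lowest in Treg WT 4 (121.8). Smad3, which was not among the genes that rose, was lowest of its group in Treg WT 4 (22.9), Treg KO 2 (25.2) and Treg KI 3 (27.8). In Treg WT 3 (30.4) it was second highest.

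Skil and Pmepa1 did not show this order. Skil was highest of its group in Treg KI 3 (344 CPM, the others at 255 to 296) and close to the others in Treg KO 2 (278 against 255 to 310) and Treg WT 4 (314 against 286 to 444). Pmepa1 was second highest in Treg WT 4 (76.6) and Treg KI 3 (62), while Treg WT 3 was lowest in both genes (286 and 36.9). Cd8a was high in Treg WT 4 (443 CPM), Treg KI 3 (318) and Treg KO 2 (73.1), and at 23.9 in Treg WT 3 against 4.16 to 17.5 in Treg WT 1, 2 and 5. With WT 4, KO 2 and KI 3 of every culture left out, the count of members called for Treg against Th0 was 6 in WT, 6 in KO and 7 in KI. In KI, Smad3 (0.34, edgeR adjusted p = 0.0429, and 0.30 ± 0.16 over all libraries) passed in place of Tgfbr3. The libraries left out were chosen from these same data, so this fit is a description.

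**Figure D4:**
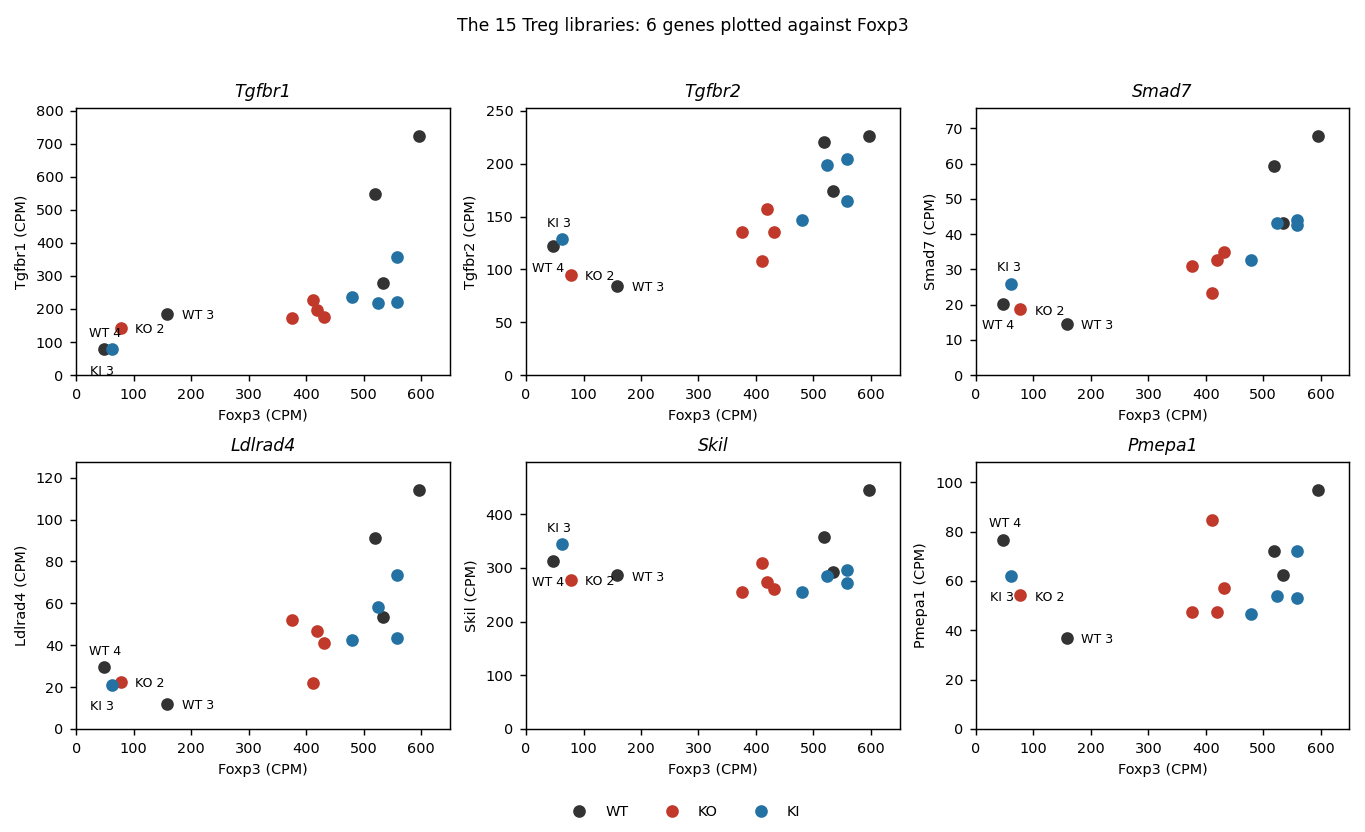
CPM of Tgfbr1, Tgfbr2, Smad7, Ldlrad4, Skil and Pmepa1 against CPM of Foxp3 in the 15 Treg libraries, with WT in black, KO in red and KI in blue. The 4 named libraries are those with Foxp3 between 47.7 and 159 CPM. Within their own genotype they sit low for Tgfbr1 and Smad7, and over all 15 libraries they lie among the others for Skil. Across genotypes the order is not kept: Tgfbr1 was at 186 CPM in Treg WT 3 and 173 in Treg KO 3, and Smad7 at 26 in Treg KI 3 and 23.3 in Treg KO 4.

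Other genes of the pathway were taken from 6 lists, arranged by role. For each list, the counts stand beside 17.4% of all genes called higher and 15.7% lower for Treg against Th0 in WT. The shares were 17.1% higher with 15.9% lower in KO and 16.7% higher with 16.9% lower in KI. Of 11 tested genes among other receptors and decoys, the same 6 rose and none fell in each genotype (Acvrl1, Acvr2a, Bmpr2, Acvr1b, Acvr1c and Nrp1), with a median of 1.90 in WT, 1.29 in KO and 1.94 in KI. Acvrl1, a type I receptor for bone morphogenetic proteins (BMP), rose in WT by 3.01 ± 0.54, Acvr2a, an activin type II receptor, by 2.50 ± 0.32, and Bmpr2, the BMP type II receptor, by 2.15 ± 0.25. Of 15 SMAD regulators, 7 rose and 3 fell in WT, 7 rose and 7 fell in KO, and 7 rose and 3 fell in KI, and their medians (0.07, 0.03 and 0.18) were near 0. Ski, the paralog of Skil, rose in WT by 1.79 ± 0.24, from 51.7 ± 11.9 to 179 ± 78.9 CPM (SD, n = 5 each), and the ubiquitin ligases Smurf1 and Smurf2, partners of SMAD7 in receptor turnover, by 1.40 ± 0.20 and 0.97 ± 0.14.

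Other SMADs moved little. In WT, 3 of 6 rose, among them Smad4, the common partner of SMAD2 and SMAD3, by 0.48 ± 0.12, and the BMP-branch Smad5 by 0.39 ± 0.12. The third was Smad6, an inhibitory SMAD, at a level near 0 (0.215 ± 0.216 CPM in Treg WT, SD, n = 5). In KO Smad4 and Smad5 rose, and in KI the same 3 as in WT. In the non-SMAD branch, which runs from TRAF6 to the kinase TAK1, 3 of 8 rose in WT (17.4% of all genes did), namely Traf6 by 0.98 ± 0.15, Map3k7 (TAK1) by 0.50 ± 0.14 and its adaptor Tab2 by 0.28 ± 0.09. In KO Traf6 and Map3k7 rose and Map2k3 fell, and in KI Traf6, Tab1, Map2k6 and Mapk14 rose. Of 11 genes that make, store or activate the ligand, 1 rose in each genotype, Lrrc32. In WT Nrros and Tgfb2 fell, in KO these 2 and Ltbp1, and in KI Nrros alone. Tgfb2 and Ltbp1 were low throughout these comparisons. Tgfb2 was at 0.455 ± 0.490 CPM in Th0 WT and 0.0412 ± 0.0564 in Treg WT (SD, n = 5 each). Ltbp1 was at 0.987 ± 0.366 CPM in Th0 KO and 0.190 ± 0.142 in Treg KO (SD, n = 5 each). Lrrc32 (GARP), which holds latent TGF-beta on the cell surface, rose in WT by 3.91 ± 0.50, and Nrros, a related anchor of latent TGF-beta, fell by 1.03 ± 0.17.

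Of 12 tested genes known to be induced by TGF-beta in various cells, 4 rose and 1 fell in WT (of all genes, 17.4% rose and 15.7% fell), 4 rose and 2 fell in KO, and 5 rose and 2 fell in KI. Foxp3, Nt5e, Itgae and the chemokine receptor gene Ccr6 rose in all 3 genotypes. Tgfbi rose in KI as well, at a level near 0 (0.262 ± 0.287 CPM in Treg KI, SD, n = 5, and 0 in Th0 KI). The cell cycle inhibitor gene Cdkn1a fell in all 3 genotypes, Id2 in KO and Rgs1 in KI. The medians of this list were 0.35, -0.18 and -0.07, so its members did not rise together. Foxp3 rose in WT by 7.69 ± 0.69, Nt5e (CD73, an ectonucleotidase of regulatory T cells) by 6.32 ± 0.65, and Itgae (CD103, the integrin chain that binds E-cadherin) by 6.31 ± 0.63. In the 3 genotype comparisons of Treg cultures, the only called gene of the 6 lists was Acvr2a, which was lower in KO (12.2 ± 2.24 CPM) than in WT (33.9 ± 24.8 CPM; SD, n = 5 each) by a log2 value of -1.47 ± 0.31 (edgeR adjusted p = 0.0278). Up to 3 genes a list were named by the size of their change in WT, and the others after their values were seen. These edgeR tests were adjusted over all genes, and the highest adjusted p of the Treg against Th0 changes named for WT was 0.0409, for Smad6. Markers of myeloid cells also moved with the Treg cultures: the 7 genes summed to 15.2 to 54.9 CPM in Treg WT and 4.10 to 11.2 in Th0 WT, with Lyz2 at up to 34.7 CPM, while Csf1r, Adgre1 and S100a8 stayed below 3 CPM in every library. Their part in the changes above was not tested.

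**Figure D5:**
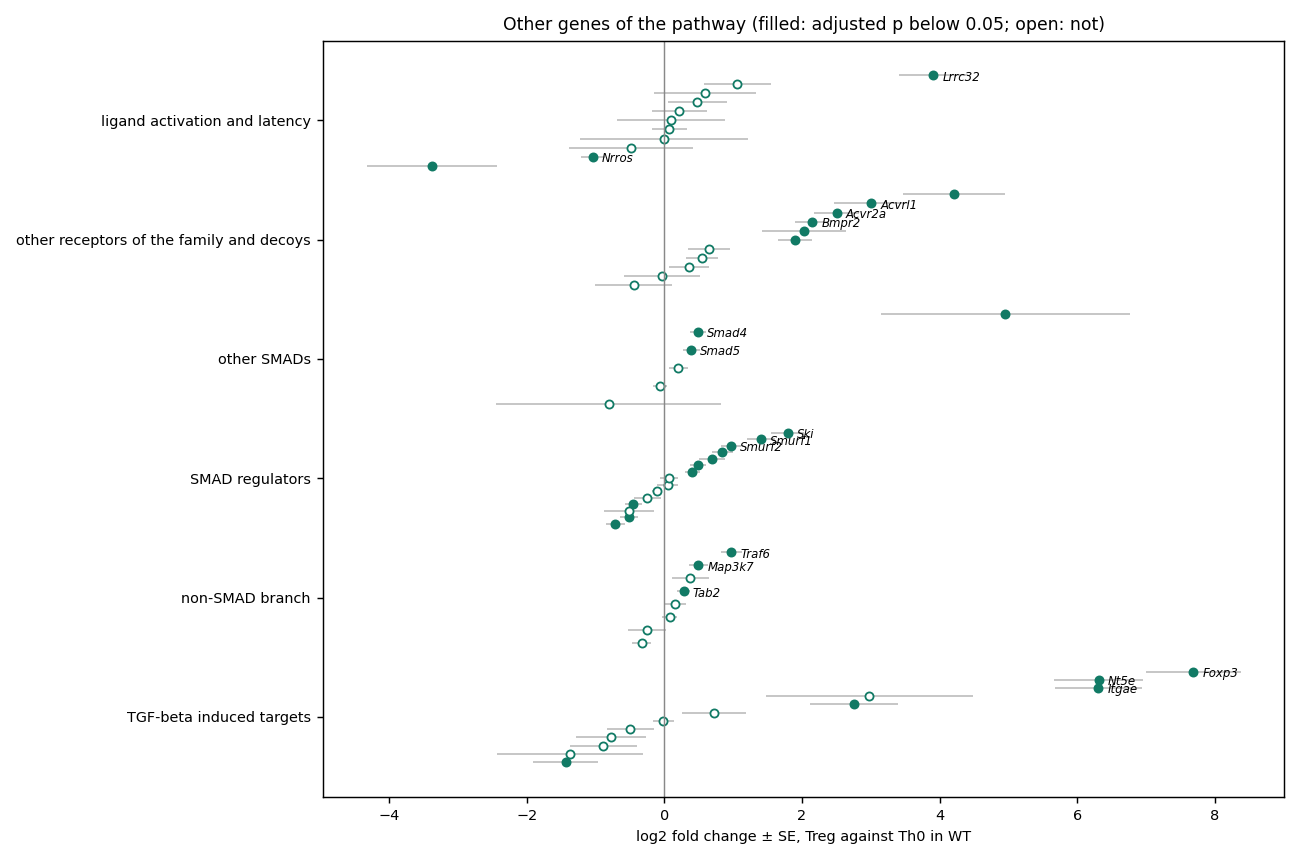
Log2 fold change ± SE for Treg against Th0 in WT of the tested genes of 6 pathway lists, 1 row per list and 1 point per gene. Filled points have an edgeR adjusted p below 0.05 and open points do not, and the 16 genes named for the size of their change carry their symbol; Foxp3 (7.69), Nt5e (6.32), Itgae (6.31) and Lrrc32 (3.91) are high, and Nrros (-1.03) is the labelled gene to the left of 0.

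The genes whose pattern was most like that of a member were found by Pearson's correlation of log2 CPM over the 44 libraries, among 9669 named genes. The libraries share cultures, so a gene that differs between Treg and the other cultures scores high, and these values are descriptions. Nearest to Tgfbr1 were Timp2 (r = 0.976), Epb41l2 (0.965) and Nt5e (0.961). Nearest to Ldlrad4 were Ikzf4 (0.970), AI480526 (0.956) and Igfbp4 (0.951). Skil and Pmepa1 were close to each other (0.939) and both to Klf10, a TGF-beta inducible zinc finger gene (0.934 and 0.958). The nearest genes to Smad3 were less alike, at 0.690 for Map3k5, 0.669 for Jarid2 and 0.661 for Med13l, and those to Tgfb3 were Mxi1 (0.866), Klc1 (0.815) and Tec (0.814).

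Promoters are shown for the 2 signalling receptors, which rose together, and for Smad3, which did not. The RefSeq table (GRCm38.p6) listed 4 of the 10 members. The 250 bases before the start site were searched on both strands for CAGAC, letters of the SMAD-binding element, which are in capitals where present.
Tgfbr1, chr4:47352972-47353221, plus strand: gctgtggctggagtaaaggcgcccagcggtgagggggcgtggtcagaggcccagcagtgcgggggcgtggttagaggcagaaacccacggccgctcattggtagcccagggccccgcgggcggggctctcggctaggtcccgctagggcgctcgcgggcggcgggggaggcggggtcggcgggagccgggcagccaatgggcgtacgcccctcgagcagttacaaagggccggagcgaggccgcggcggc
Tgfbr2, chr9:116175364-116175613, minus strand: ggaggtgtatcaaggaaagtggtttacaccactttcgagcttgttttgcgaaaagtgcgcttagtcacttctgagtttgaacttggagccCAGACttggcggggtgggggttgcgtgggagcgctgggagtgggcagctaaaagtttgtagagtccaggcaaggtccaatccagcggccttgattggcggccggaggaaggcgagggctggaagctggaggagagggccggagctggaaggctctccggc
Smad3, chr9:63757995-63758244, minus strand: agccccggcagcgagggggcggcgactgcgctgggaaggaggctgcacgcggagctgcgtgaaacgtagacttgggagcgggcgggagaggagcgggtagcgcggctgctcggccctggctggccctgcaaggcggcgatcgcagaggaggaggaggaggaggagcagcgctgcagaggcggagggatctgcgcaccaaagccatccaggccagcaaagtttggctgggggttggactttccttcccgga
CAGAC occurs 1 time in the window of Tgfbr2 and not in those of Tgfbr1, Smad3 or Tgfb1, while 42.2% of 32851 mouse promoter windows of this length hold it. A second start listed for Tgfbr1, within the gene, has 1 match. No binding was measured here, and the absence of a match says only that these letters are not in this window.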

How the data were processed

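Raw counts per gene were deposited by the authors in 1 table with 2 sequencing-lane columns per library, per the file headers. The deposited column names carry the word star, and no source at hand states the counting tool or strand setting. A human build, GRCh38, stands in the submitters' processing notes, whereas the table's identifiers are mouse Ensembl genes, so coordinates, lengths and untranslated regions were taken from GENCODE release M21 (GRCm38) by identifier, without reference to the build that the reads were aligned to. The 2 lane columns of a library were summed (totals differed by 3.59 to 3.93 times between lanes), and no pair of libraries within a group was as alike as copies (lowest median chi-square of 4.362 over 86 pairs, where copies give 0.455).

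Counts were normalised with TMM and filtered by group (filterByExpr, 21873 genes left). A fit of 9 group means over all 44 libraries was tested with edgeR 4.0.16 (R 4.3.3) in 22 comparisons, with Benjamini-Hochberg adjustment over all genes and a threshold of 0.05. The procedure was tested on simulated counts. CPM use TMM-scaled library sizes; ± on a level is the SD and on a log2 fold change the SE. For Tgfb3, the floor of 3 counts covers counting error only.

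The members, gene lists and tests were chosen with earlier results of these data known. All members are described; of each pathway list, up to 3 called genes with the largest change for Treg against Th0 in WT and a mean log2 CPM of at least 2 are named. 1 gene of the list of induced targets is not reported here and was left out of its counts. Alternatives were DESeq2 1.42.0, median-of-ratios scaling, no filter, fits of only the groups compared, a replicate block, a threshold of 0.01, CPM by library total, each library left out in turn, and WT 4, KO 2 and KI 3 left out together. WT 4, KO 2 and KI 3 were chosen from these data for high Cd8a, although Th1 KO 3 (31.7 CPM) held more of it than Th1 KO 2 (21.3). The labels do not say what a library number stands for. The main fit paired no libraries, and its p-values take no account of library number. The replicate block was run for all comparisons, as an alternative only. A pairing rule asked that the deviations from group means of every same-numbered pair correlate above 0.1. It was met by Th0 with Th1 in all 3 genotypes and by Th0 with Treg in KO and KI. In WT, Th0 with Treg missed it (lowest 0.092), although same-numbered pairs averaged 0.222 and other pairs -0.055.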

Additional observations from a re-analysis of the deposited data

Results flagged for a closer look

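Each of the 10 genes was examined in each of the 9 groups (90 sets of 4 or 5 libraries) for a library whose gap to its nearest neighbour was large against the group's range (Dixon's 95% criterion). Chance marks about 1 in 20 such sets, and 14 of 90 were marked. They were not spread evenly: 6 concerned Tgfb3.

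For Tgfb3 the libraries were Th0 KO 2 (13.2 CPM, the nearest other at 0.944), Th1 KO 2 (27.5, nearest 1.45), Th1 KI 3 (2.93, nearest 0.855), Treg WT 4 (11.8, nearest 3.16), Treg KO 2 (23.8, nearest 2.75) and Treg KI 3 (28, nearest 0.570). In all 6 the marked library was the highest. KO 2 also stood highest for Smad3 in Th0 (45.2 CPM, nearest 30.2) and Th1 (49.2, nearest 33.1), and for Ldlrad4 in Th0 (1.63, nearest 0.758). Treg WT 4 was highest for Tgfb1 (192 CPM, nearest 115.4) and Treg KI 3 for Tgfbr3 (82.2, nearest 51.7).

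The remaining 3 fell in other libraries. Tgfb1 was lowest in Th0 KO 5 (72.1 CPM, nearest 93.5), and Pmepa1 was highest in Th1 WT 2 (13.2, nearest 7.22) and in Treg KO 4 (84.5, nearest 57.2).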

How the results depend on the processing

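Of 1540 values of members under the alternatives other than leaving out 1 library, 46 had the other sign, 13 of them of Tgfb3 and none of a difference called over all libraries. For Treg against Th0 in KI, Tgfb3 (3.28) was -0.28 without WT 4, KO 2 and KI 3 and -0.62 (without Treg KI 3) to 3.61 with a library left out, and it passed with DESeq2 (3.27). The 6 members called for Treg against Th0 in WT and KO stayed called under every alternative run. The count for Th1 against Th0 in KO was 2, but 5 when only the groups compared were fitted (adding Tgfb1, Tgfbr3 and Skil, the last at -0.33), 4 with the replicate block and 1 at a threshold of 0.01, and 1 to 2 with a library left out. The count for Th1 against Th0 in KI (2) was 1 to 3 with a library left out. The count for KI against WT in Th0 (0) was 1 with DESeq2 and 0 to 1 with a library left out, and that for KO against WT in Treg (0) was 1 without WT 4, KO 2 and KI 3 and 0 to 1 with a library left out. The cause of these changes was not tested.

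The tally of single values covers every called difference of a member and a chosen part of the uncalled ones. Of its alternative values, 689 of called differences kept their call and 16 lost it. Of those of the chosen uncalled differences, 540 stayed uncalled, 30 passed and 2 changed sign. Among the latter, Tgfb1 for Treg against Th0 in WT passed without Th0 WT 3 (0.62), Tgfbr3 for Th1 against Th0 in KO without Th0 KO 2 (0.70) and with DESeq2 (0.59), Smad3 for Th1 against Th0 in KI without Th1 KI 4 (0.57) and with DESeq2 (0.49), and Tgfbr3 for Treg against Th1 without Treg KO 2 in KO (-0.75) and without Treg KI 3 in KI (-0.56). Where numbers did not meet the pairing rule, the replicate block added Tgfb1 for Treg against Th0 in WT (0.48), Tgfb1 for Treg against Th1 in WT (0.39) and Tgfbr3 for Treg against Th1 in KO (-0.52). The block changed no other call of a member beyond those given with the results. The share of all genes called for Treg against Th0 in WT ran from 18.2% to 40.4% over the alternatives, and for Th1 against Th0 in KO from 4.16% to 20.2%. Of the 3 members with TTGGGAG, 2 hold the 8mer, and 6 members had their highest mean in a Treg group with either CPM scaling.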

Other observations

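Ifng, the gene of interferon-gamma and the signature cytokine of Th1 cells, was read in the Treg libraries after its values were seen. It stood at 78.7 CPM in Treg WT 3, 846 in Treg WT 4, 157 in Treg KO 2 and 160 in Treg KI 3, the 4 libraries with little Foxp3. In the other 11 Treg libraries it stood at 0.622 to 8.88 CPM, and in Th1 WT libraries at 1072 to 2985 CPM. Th0 cultures also held it, at 38.9 to 1660 CPM in WT, 281 to 474 in KO and 36.5 to 1022 in KI. Cd8a was high in Treg WT 4 (443 CPM), Treg KI 3 (318) and Treg KO 2 (73.1). The part of other cells in the Ifng values was not tested.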
